A study of Mus musculus with 6 samples.

Results

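The 10 genes described here encode collagen-binding and RGD-binding integrin subunits in MC3T3-E1 cells. The α subunits are Itga1, Itga10, Itga11, Itga5, Itga8 and Itgav and the β subunits are Itgb1, Itgb3, Itgb5 and Itgb8. These genes are 10 of the 27 integrin subunit genes and of the 54532 genes in the deposited table, and not every subunit that binds such ligands. All 10 passed the limit for testing, a mean of at least 0.5 FPKM, together with 12681 tested genes in all counting themselves. FPKM are reads scaled to gene length and to an effective library size. The genes were chosen by name, but with their levels under metformin and control already known from these 6 samples. Their difference between the groups is therefore given as a description, without a test.

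MC3T3-E1 is an osteoblast precursor line derived from mouse calvaria. The control group was cultured in osteogenic medium, which supplies β-glycerophosphate, ascorbic acid and dexamethasone, and the metformin group in the same medium with 0.2 mM metformin, a biguanide used to lower blood glucose. Cells were treated for 3 days, and each group had 3 samples, which the study calls biological replicates. The medium, the dose and the time are those of the study, since the sample labels give none of them. That the samples labelled control were in osteogenic medium rests on the study's description of its sequencing comparison. All 6 samples came from 1 cell line.

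Integrins are transmembrane receptors made of 1 α and 1 β chain, and they link the extracellular matrix to the actin cytoskeleton. The α1, α2, α10 and α11 chains each pair with β1 and bind collagens. The α5, α8 and αv chains bind proteins that carry the Arg-Gly-Asp (RGD) motif, such as fibronectin, vitronectin, osteopontin and nephronectin. α5 and α8 pair with β1, whereas αv pairs with β1, β3, β5, β6 or β8. Osteoblasts use these receptors to adhere to type I collagen and to the noncollagenous proteins of bone matrix.

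Between 18399861 and 22111790 reads per library were recovered from the FPKM. Control replicate 1 stood apart from the others: its values correlated with those of the other controls at r = 0.952 and 0.96 across genes, whereas control replicates 2 and 3 correlated at 0.988. Of the osteoblast transcription factors, Runx2 had 30.5 ± 3.19 FPKM (SD, n = 3) in the control group and 26.7 ± 0.844 with metformin. Sp7 had 41.6 ± 5.22 and 53.3 ± 1.02, and Dlx5 20.5 ± 6.73 and 40.2 ± 0.416. The other osteoblast markers had lower levels. Bglap2 had a mean of 14.1 FPKM in the control group and 8.86 with metformin, and Bglap 8.04 and 5.37. Alpl had 3.16 and 2.71, and Phex 0.493 and 0.167. The 5 endothelial markers summed to at most 0.156 FPKM in any library and the 5 adipocyte markers to at most 0.229. The 6 macrophage markers summed to 1.97 to 2.18 FPKM in the control group and 1.12 to 1.35 with metformin, mostly Cd68, while Itgam and Tyrobp had 0 reads in all 6 libraries. Their part in any difference below was not tested. In bulk RNA, a smaller share of cells that express a gene and less of its RNA per cell cannot be told apart.

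In osteogenic medium alone, the β subunits held both ends of the range. Itgb5 had the highest level, 385 ± 13.0 FPKM (SD, n = 3), followed by Itgb1 with 203 ± 43.9, Itga10 with 64.2 ± 1.83, Itga5 with 48.2 ± 4.17 and Itga11 with 25.1 ± 1.25. The ranges of these 5 subunits did not overlap. Itgav (11.8 ± 3.65 FPKM), Itgb3 (9.87 ± 1.03) and Itga8 (9.08 ± 2.25) came next, and neighbours among these 3 overlapped. Itgb8 (1.35 ± 0.542 FPKM) and Itga1 (1.29 ± 0.264) were the lowest and overlapped each other. In the control group Itgb5 and Itgb1 had higher levels than 99.3% and 98.7% of the tested genes, and Itga1 than 14.1%.

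With metformin, Itgb1 took the first place with 329 ± 7.38 FPKM (SD, n = 3) and Itgb5 the second with 247 ± 12.7. Itga5 (55.7 ± 0.496 FPKM) and Itga11 (50.3 ± 1.93) then preceded Itga10 (38.5 ± 0.451), which had been above both in the control group. By group mean, Itga1 and Itgb8 exchanged the 2 last places, but their ranges overlapped in the control group. Without control replicate 1, Itga1 had the higher control mean, 1.15 against 1.03 FPKM for Itgb8. No 2 neighbours in the metformin order overlapped in the 3 metformin libraries.

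For all 10 subunits the 3 metformin samples did not overlap the 3 control samples. The metformin samples were higher for Itga1, Itga11, Itga5, Itga8, Itgav and Itgb1, and lower for Itga10, Itgb3, Itgb5 and Itgb8. Among all tested genes, 23.6% lay entirely higher with metformin and 20.5% entirely lower, 44.1% in either direction. Since the subunits were picked with these values known, nothing is read from their count. The median log2 fold change of FPKM + 1 was 0.46 over the 10 subunits, 0.0053 over all tested genes and -0.72 over the 4 β subunits.

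**Figure D1:**
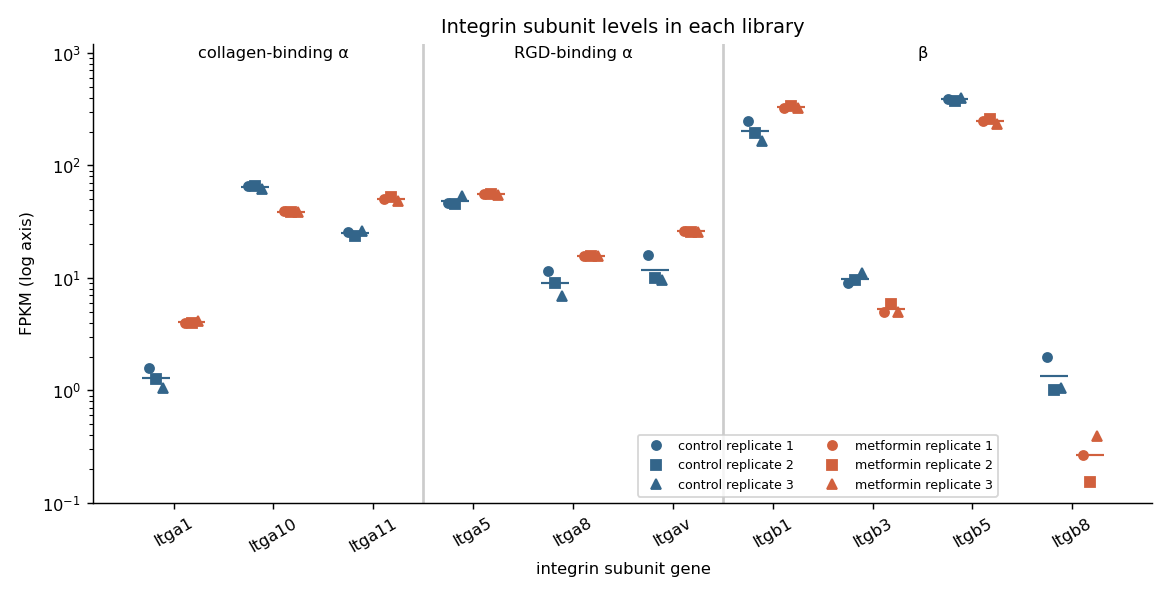
Levels of the 10 integrin subunits in FPKM on a log axis, with 1 point per library (blue for control, orange for metformin, symbol by replicate) and a line at each group mean (n = 3). The 2 groups do not overlap for any subunit, and the control points of Itga8, Itgav, Itgb1 and Itgb8 are spread more widely than those of Itga10 and Itgb5.

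The 3 collagen-binding α subunits moved apart. Itga11, which encodes a receptor of fibrillar collagens in mesenchymal cells, had 25.7, 23.6 and 25.9 FPKM in the control samples and 50.1, 52.3 and 48.4 with metformin. Its lowest metformin value was well above its highest control value, and the mean was 2.01 times the control mean (log2 fold change of FPKM + 1 0.98, SE 0.083). Itga1, the α1 chain, which binds collagen IV as well as fibrillar collagens, had 1.57, 1.25 and 1.04 FPKM in the control samples and 3.94, 3.94 and 4.18 with metformin. This was the largest relative increase of the 10 subunits, 3.12 times the control mean, at the lowest control mean. The log2 fold change of Itga1 on the FPKM + 1 scale was 1.14 (SE 0.11), and it was 1.59 with a pseudocount of 0.1, since a pseudocount of 1 understates changes of low genes.

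Itga10, the α10 chain known from cartilage, went the other way. It had 65.4, 65.2 and 62.1 FPKM in the control samples and 39.0, 38.3 and 38.1 with metformin, 0.599 times the control mean (log2 fold change -0.72, SE 0.076). The samples of each group were close to each other, with a coefficient of variation of 2.85% in the control group and 1.17% with metformin. The ratio of Itga10 to Itga11 was 2.54, 2.76 and 2.40 in the control samples and 0.778, 0.733 and 0.788 with metformin, so the order of these 2 subunits was reversed in every metformin sample. The summed level of the 3 collagen-binding α subunits hardly differed, with 92.7, 90.0 and 89.0 FPKM in the control samples and 93.1, 94.5 and 90.7 with metformin, and the groups overlapped. Itga10 made up 70.9% ± 1.33 of that sum in the control group and 41.5% ± 0.834 with metformin, and Itga11 made up 27.7% ± 1.40 and 54.2% ± 1.01 (SD, n = 3 each).

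The bases before the start sites are shown for 2 of the pairs whose order differed between the groups, Itga10 with Itga11 and Itgb5 with Itgb1, so that the upstream regions of subunits that moved apart can be set side by side. The sequences are those of RefSeq (GRCm38.p6), 5′ to 3′ on the strand of the gene, and end just before the first base of the gene in the deposited table. Capitals mark GC boxes (GGGCGG on either strand). They cover chr3:96645334-96645583 (+ strand) for Itga10, chr9:62677605-62677825 (+) for Itga11, chr8:128685404-128685653 (+) for Itgb1 and chr16:33829415-33829664 (+) for Itgb5.

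Itga10: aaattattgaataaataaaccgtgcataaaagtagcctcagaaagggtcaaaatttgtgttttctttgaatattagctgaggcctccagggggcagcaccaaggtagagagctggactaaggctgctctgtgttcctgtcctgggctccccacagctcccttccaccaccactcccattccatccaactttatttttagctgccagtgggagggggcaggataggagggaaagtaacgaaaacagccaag

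Itga11: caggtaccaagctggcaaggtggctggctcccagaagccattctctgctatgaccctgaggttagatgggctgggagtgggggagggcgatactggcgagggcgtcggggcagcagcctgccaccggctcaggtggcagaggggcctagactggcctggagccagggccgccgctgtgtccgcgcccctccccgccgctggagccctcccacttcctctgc

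Itgb1: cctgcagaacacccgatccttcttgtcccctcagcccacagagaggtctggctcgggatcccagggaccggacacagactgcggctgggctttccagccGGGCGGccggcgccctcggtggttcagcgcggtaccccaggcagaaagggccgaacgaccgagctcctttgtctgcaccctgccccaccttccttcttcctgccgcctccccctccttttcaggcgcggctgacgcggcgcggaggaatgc

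Itgb5: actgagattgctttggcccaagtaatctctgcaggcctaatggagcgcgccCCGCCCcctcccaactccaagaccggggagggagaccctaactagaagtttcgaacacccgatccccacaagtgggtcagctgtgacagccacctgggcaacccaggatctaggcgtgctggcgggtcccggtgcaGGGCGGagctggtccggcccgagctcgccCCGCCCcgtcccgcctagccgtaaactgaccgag

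RefSeq start sites were matched for 9 of the 10 subunits. In the 250 bases before them, GC boxes were found 3 times for Itgb5, 2 times for Itga5, 1 time for Itgb1 and not for the other 6, and 32.7% of the 32851 promoters of the same length held at least 1. The motif TATAAA (12.4% of all promoters), the AP-1 motifs TGACTCA and TGAGTCA (4.46% for either), the E-box CACGTG (6.02%), the cyclic AMP element TGACGTCA (1.55%) and the CArG box (1.47%) were searched on both strands and had no match in these 9 windows. The window of Itga10 held 2 CG dinucleotides and 48.0% GC. The windows of the other 8 subunits held 10 to 21 CG dinucleotides, against a median of 6 over all promoters. The matched start of Itgb8 lies 526 bases inside the gene of the deposited table, so its whole window is within that gene. A match of letters describes the sequence only.

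The 3 RGD-binding α subunits described here were all higher with metformin, by different amounts. Itgav, the αv chain shared by several receptors of vitronectin and osteopontin, had 16.1, 9.97 and 9.51 FPKM in the control samples and 26.2, 25.7 and 25.8 with metformin. The mean was 2.19 times the control mean (log2 fold change 1.10, SE 0.19), and control replicate 1 lay well above the other 2 controls. Itga8, whose product pairs with β1 and binds nephronectin, had 11.4, 8.92 and 6.92 FPKM in the control samples and 15.5, 15.7 and 15.6 with metformin, 1.72 times the control mean (log2 fold change 0.74, SE 0.16). The control samples of Itga8 were spread far more than the metformin samples, which had an SD of 0.0887 FPKM.

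Itga5, the α chain of the classical fibronectin receptor, differed least. It had 46.1, 45.5 and 53.0 FPKM in the control samples and 56.1, 55.8 and 55.1 with metformin, 1.16 times the control mean (log2 fold change 0.21, SE 0.091). The highest control sample, replicate 3, was close to the lowest metformin sample. Itga5 made up a like share of the summed level of the 6 α subunits in both groups, 30.2% ± 2.94 in the control group and 29.3% ± 0.184 with metformin, and these ranges overlapped. The sum of the 3 RGD-binding α subunits was 73.5, 64.4 and 69.4 FPKM in the control samples and 97.8, 97.1 and 96.5 with metformin. Unlike the collagen-binding sum, the groups did not overlap for the RGD-binding sum.

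Of the β subunits, only Itgb1 was higher with metformin. Itgb1, the common partner of all 6 α subunits described here, had 251, 193 and 164 FPKM in the control samples and 326, 338 and 324 with metformin, 1.63 times the control mean (log2 fold change 0.72, SE 0.16). The 3 controls were widely spaced and the 3 metformin samples close together. Itgb5, the β chain of the αvβ5 vitronectin receptor, had 392, 370.5 and 394 FPKM in the control samples and 247, 260.3 and 235 with metformin, 0.642 times the control mean (log2 fold change -0.64, SE 0.090). No metformin sample of Itgb5 came near the controls.

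Itgb3, the β chain of αvβ3, had 9.02, 9.57 and 11.01 FPKM in the control samples and 4.94, 5.81 and 4.98 with metformin. The mean was 0.531 times the control mean (log2 fold change -0.80, SE 0.10). Itgb8, whose product forms with αv a receptor of latent TGF-β, had 1.97, 1.02 and 1.05 FPKM in the control samples and 0.264, 0.154 and 0.390 with metformin. These levels came from 398, 236 and 228 reads in the control libraries and 58, 37 and 84 with metformin, the fewest of the 10 subunits. The mean of Itgb8 was 0.2001 times the control mean. Its log2 fold change was -0.87 (SE 0.18) with a pseudocount of 1, -1.96 with a pseudocount of 0.1 and -2.35 by voom on the recovered reads.

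Seen by heterodimer partner, Itgb5 and Itgb1 exchanged the first place among the β subunits. FPKM are scaled to gene length, which for all 10 subunits equals the merged exon bases of the gene in GENCODE M21. A level relative to another gene therefore depends on the length used. This length is 10744 bases for Itgav, whose longest transcript has 7054, but 5901 bases for Itgb3, whose longest transcript has 5784. For Itga1 and Itgb8 it is 18599 and 11060 bases, with 10967 and 8403 in the longest transcripts. FPKM describe transcripts and not receptors at the cell surface. The ratio of Itgb1 to Itgb5 was 0.640, 0.520 and 0.417 in the control samples and 1.32, 1.30 and 1.38 with metformin. Itgb5 was thus the more abundant in every control sample and Itgb1 in every metformin sample. Itgb1 made up 33.6% ± 4.77 of the summed level of the 4 β subunits in the control group and 56.6% ± 0.778 with metformin, and Itgb5 64.5% ± 4.56 and 42.5% ± 0.771 (SD, n = 3 each). The sum itself was 653, 574 and 571 FPKM in the control samples and 578, 604 and 564 with metformin, and the groups overlapped.

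The αv chain and its 3 other partners moved in opposite directions. The ratio of Itgav to Itgb3 was 1.78, 1.04 and 0.864 in the control samples and 5.30, 4.42 and 5.19 with metformin. Itgb5 exceeded Itgav by 24.4, 37.2 and 41.4 times in the control samples and by 9.45, 10.1 and 9.09 times with metformin. Itgav exceeded Itgb8 by 8.15, 9.80 and 9.07 times in the control samples and by 98.9, 167 and 66.3 times with metformin, where Itgb8 had few reads. The summed level of Itgb3, Itgb5 and Itgb8 was 397 ± 13.6 FPKM in the control group and 253 ± 13.0 with metformin. The ratio of Itgb1 to its α partners was higher with metformin for Itga10, with 2.65 to 3.83 in the control samples and 8.36 to 8.82 with metformin, and for Itga5, with 3.10 to 5.44 and 5.81 to 6.06. It was lower for Itga1, with 154 to 160 and 77.6 to 85.7, for Itgav, with 15.6 to 19.3 and 12.5 to 13.2, and for Itga8, with 21.6 to 23.8 and 20.8 to 21.5. For Itga11 the ratio was 6.36 to 9.74 in the control samples and 6.46 to 6.69 with metformin, so these ranges overlapped. The sum of the 6 α subunits was 160 ± 5.97 FPKM in the control group and 190 ± 2.32 with metformin, and the 4 β subunits summed to 3.75 ± 0.168 and 3.06 ± 0.0752 times that.

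**Figure D2:**
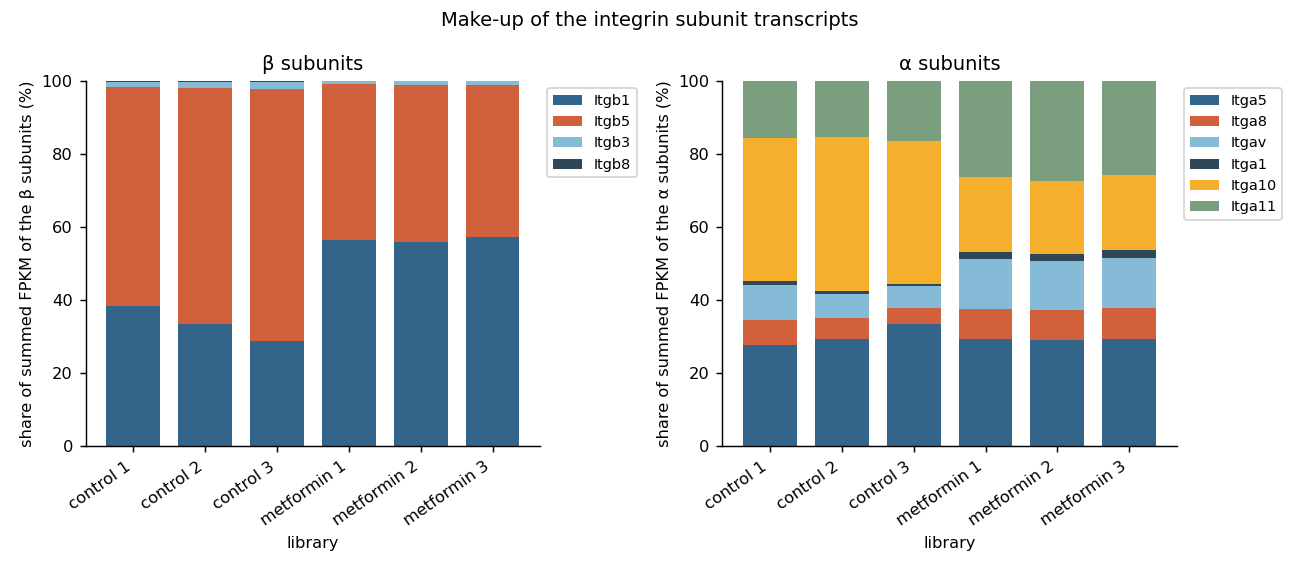
Share of each subunit, in percent, of the summed FPKM of the 4 β subunits (left) and of the 6 α subunits (right) in each of the 6 libraries. Itgb1 makes up 28.8% to 38.4% of the β sum in the control libraries and 55.9% to 57.4% with metformin, while Itga10 makes up 39.2% to 42.2% of the α sum in the control libraries and 19.99% to 20.4% with metformin.

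The distance of control replicate 1 from the other controls touched some subunits more than others. On the log2(FPKM + 1) scale it lay above the mean of control replicates 2 and 3 by 0.67 for Itgav, 0.55 for Itgb8, 0.49 for Itgb1, 0.48 for Itga8 and 0.26 for Itga1. For Itga11, Itga10 and Itgb5 the distance was 0.055, 0.039 and 0.036, and for Itga5 and Itgb3 it was -0.090 and -0.17. The longest transcripts of the first 5 subunits had a GC content of 40.4% to 44.8%, and those of the other 5 of 52.1% to 57.3%. Over all tested genes this distance had a median of 0.30 for transcripts with 40% to 45% GC and -0.37 for those with 55% to 60%. Without control replicate 1 the metformin mean was 2.66 times the control mean for Itgav, 1.84 times for Itgb1, 1.97 times for Itga8, 3.51 times for Itga1 and 0.261 times for Itgb8. For Itga10, Itga11, Itgb3 and Itgb5 the same ratio was 0.605, 2.03, 0.509 and 0.647, close to the values with all samples. After GC content was corrected for library by library, the log2 fold changes were 1.06 for Itgav, 0.66 for Itgb1, 0.69 for Itga8 and 0.14 for Itga5. They were 1.11 for Itga1, 0.92 for Itga11, -0.77 for Itga10, -0.84 for Itgb3, -0.70 for Itgb5 and -0.85 for Itgb8. The same correction shifted the median of all genes by -0.054, so such shifts are not particular to these subunits.

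**Figure D3:**
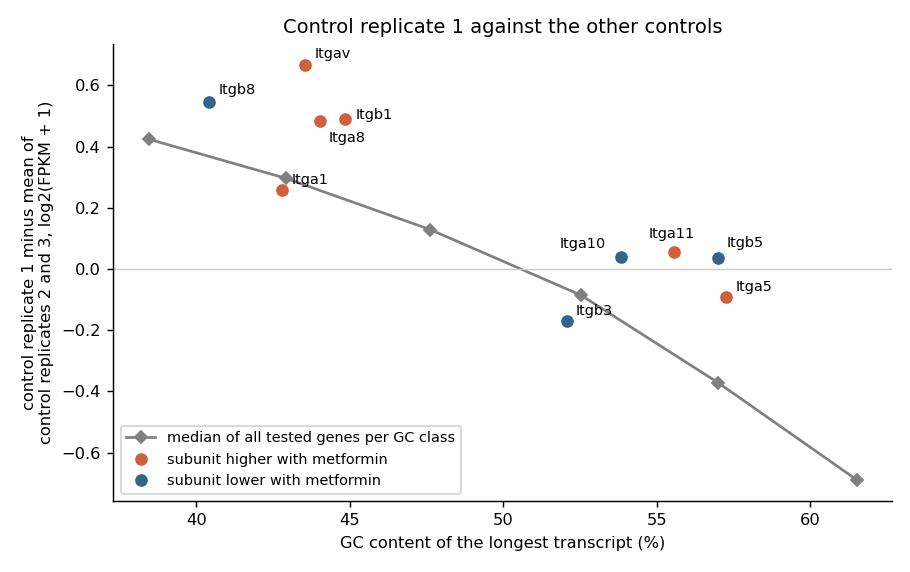
Distance of control replicate 1 from the mean of the other 2 controls in log2(FPKM + 1), against the GC content of the longest transcript in percent, for the 10 subunits (orange: higher with metformin, blue: lower) and as the median of all tested genes in 6 GC classes (grey, drawn at the median GC content of the class). Itgav, Itgb8, Itgb1 and Itga8 lie highest, at 0.48 to 0.67, and the 5 subunits with over 50% GC lie between -0.17 and 0.055.

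Some subunits share sequence with other annotated genes. Itga1 overlaps Gm49395 and Itga10 overlaps Gm42957 on the same strand, with 685 and 1739 shared exon bases, and Itga8 and Itgav overlap antisense transcripts with 372 and 634 shared exon bases. None of these 4 genes exceeded 0.253 FPKM in any library. The strand setting of the counting was not given, so reads of antisense partners could not be told apart. Itgb5 shares 343 bases at 99.7% identity with Gm38317, which had 26.5 ± 7.02 FPKM in the control group and 20.6 ± 2.49 with metformin, so reads could be divided between them. For Itga11, Itgb1, Itgb3 and Itgb8, no overlapping gene and no near-identical transcript was found. The 10 genes lie on 9 chromosomes, and the coordinates of all of them in the table equal those of GENCODE M21 (GRCm38). Itga8 and Itgav share chromosome 2, at 12106632 to 12301922 and 83724397 to 83806916.

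Of the 17 other integrin subunits, 4 were tested by limma-trend. Of these, 1 rose and 0 fell, where 13.2% of all tested genes rose and 9.28% fell. Itga3, the α chain of laminin receptors with β1, rose from 13.4 ± 1.30 to 17.1 ± 0.706 FPKM (log2 fold change 0.33, adjusted p = 0.0480). Its call was lost without control replicate 2 (adjusted p = 0.126) and without any 1 metformin replicate (0.1198 to 0.186), with the replicate block (0.141), with the GC correction (0.0806) or both (0.0982), with no filter on low values (0.0682) and after total-read scaling (0.0780). Itga9, Itga2b and Itgb2 were not called, with log2 fold changes of 0.15, -0.16 and -0.14. Itga2b had 1.19 ± 0.430 FPKM in the control group and 0.958 ± 0.272 with metformin. Itga2, the fourth collagen-binding α chain, had 0.218 ± 0.0524 FPKM in the control group and 0.333 ± 0.0539 with metformin and was below the limit for testing. Itga6 was also below it, with 0.0624 ± 0.00831 and 0.180 ± 0.0272 FPKM. Itgb6, the remaining partner of αv, and the leukocyte chain Itgam had 0 reads in every library.

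Among the ligands of the collagen-binding receptors, more chains rose than fell. Of 16 tested collagen chains, 5 rose and 1 fell by limma-trend with Benjamini-Hochberg adjustment, where 13.2% of all tested genes rose and 9.28% fell, 22.5% in either direction. Their median log2 fold change was 0.36. Col1a1, the main chain of bone collagen, had 927, 1506 and 1585 FPKM in the control samples and 2518, 2576 and 2366 with metformin (log2 fold change 0.93, adjusted p = 0.0230), and control replicate 1 was the lowest sample. Col5a1 rose by 0.91 (adjusted p = 0.0285) and Col6a3 by 0.79 (adjusted p = 0.00941) on the log2 scale. Col3a1 fell by 0.33 (adjusted p = 0.0464), from 356 ± 19.9 to 282 ± 14.1 FPKM. The calls of Col6a3, Col1a1, Col5a1 and Col3a1 held in 5, 3, 2 and 1 of the 6 fits that each left out 1 replicate, and that of Col6a3 was lost without metformin replicate 2 (adjusted p = 0.0531 by limma-trend). With no filter the adjusted p was 0.186 for Col1a1, 0.0776 for Col5a1 and 0.126 for Col3a1, and the call of Col3a1 was also lost after scaling by the trimmed mean of M values (0.0506), with a minimum of 10 reads per sample (0.0521) and under the replicate block (0.130). Without control replicate 1, 8 chains rose and 3 fell, without control replicate 3, 8 rose, and without metformin replicates 1, 2 and 3 it was 2, 1 and 3 that rose. Without any 1 replicate other than control replicate 1, 0 fell by limma-trend, with 0 or 1 at an unadjusted p under 0.05. With the GC correction 8 rose and 2 fell. Over all genes, 1670 were called higher and 1177 lower with all samples. Those counts were 2974 and 2587 without control replicate 1, and 2062 and 2434 with the GC correction.

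Of the 3 tested other collagen receptors, Ddr2, a receptor tyrosine kinase activated by fibrillar collagens, rose from 22.5 ± 4.32 to 36.2 ± 0.106 FPKM (log2 fold change 0.68, adjusted p = 0.0133 by limma-trend). Its call was lost without any 1 metformin replicate (adjusted p = 0.0604 to 0.0621). Without control replicate 1 or 3, 2 of the 3 receptors rose. Ddr1 and the endocytic receptor gene Mrc2 were not called, with log2 fold changes of 0.34 and 0.47. Over all tested genes, 13.2% rose and 9.28% fell.

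The list of ligands of the RGD-binding integrins held genes called in both directions. Of 16 tested, 7 rose and 3 fell by limma-trend, and 6 were not called, with a median log2 fold change of 0.42. Over all tested genes, 13.2% rose and 9.28% fell, and the median was 0.0053. Npnt, which encodes nephronectin, the ligand of α8β1, had 41.3, 31.3 and 28.5 FPKM in the control samples and 162, 167 and 155 with metformin (log2 fold change 2.24, adjusted p = 0.000175). The matricellular genes Cyr61 and Ctgf, whose products bind integrins without an RGD motif, rose by 2.18 (adjusted p = 0.000206) and 1.58 (adjusted p = 0.000165) on the log2 scale. Every metformin value of these 3 genes exceeded every control value by far. The 3 that fell were genes of the bone matrix. Spp1, which encodes osteopontin, had 8357, 8188 and 6565 FPKM in the control samples and 2680.0, 2727 and 2704 with metformin (log2 fold change -1.50, adjusted p = 0.000471), a call that was lost with no filter on low values (adjusted p = 0.198). Ibsp, which encodes bone sialoprotein, fell by 1.60 (adjusted p = 0.000578) and Dmp1 by 0.97 (adjusted p = 0.000683) on the log2 scale. Fn1, which encodes fibronectin, was not called, with 806 ± 62.5 FPKM in the control group and 863 ± 51.7 with metformin. Without control replicate 1, 10 ligands rose and 5 fell. Over all genes that fit called 2974 higher and 2587 lower, against 1670 and 1177 with all samples.

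The proteins that connect integrins to actin were represented by 35 tested adaptors. Of these, 12 rose and 1 fell by limma-trend, with a median log2 fold change of 0.31. Over all tested genes, 13.2% rose and 9.28% fell, and the median was 0.0053. Vcl, which encodes vinculin, had 19.96, 14.2 and 17.6 FPKM in the control samples and 40.5, 42.2 and 38.4 with metformin (log2 fold change 1.19, adjusted p = 0.00120). Flna, whose product crosslinks actin and binds β tails, rose from 100.1 ± 10.4 to 201 ± 7.498 FPKM (log2 fold change 1.00, adjusted p = 0.00103). Tns1, which encodes a tensin, fell by 1.13 (adjusted p = 0.00227), from 66.4 ± 13.2 to 29.4 ± 0.842 FPKM. Without control replicate 1, 18 adaptors rose and 3 fell. Over all genes that fit called 2974 higher and 2587 lower, against 1670 and 1177 with all samples. Without control replicate 2 the number of adaptors that rose was 7. It was 5 without each of the metformin replicates and 8 with the replicate block.

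**Figure D4:**
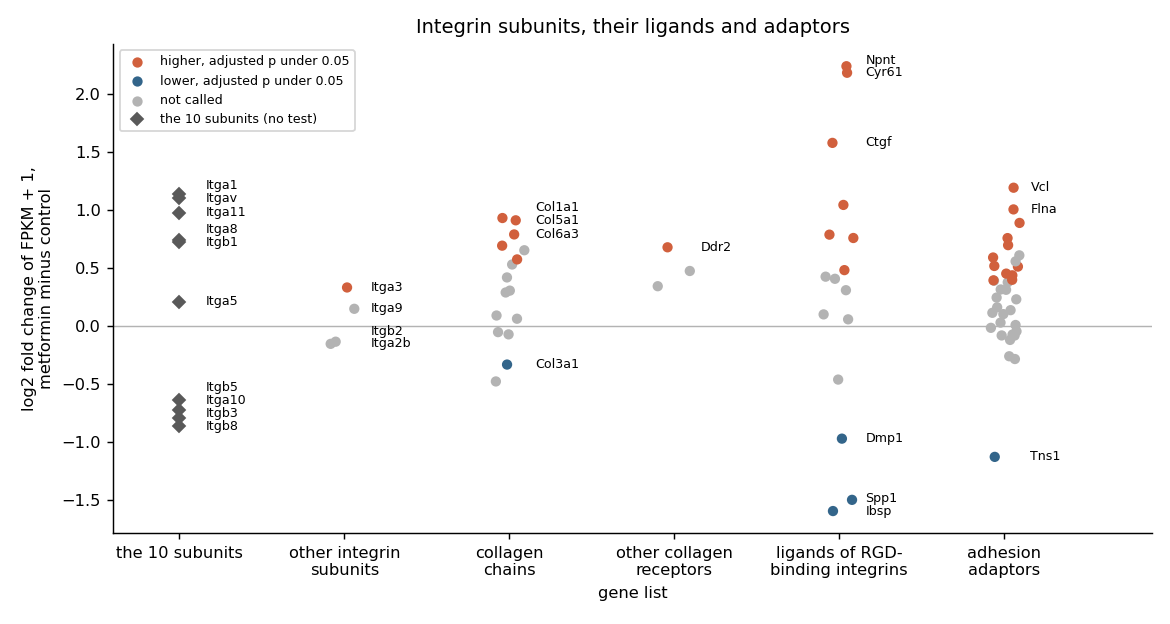
Log2 fold change of FPKM + 1, metformin minus control, for the 10 subunits (diamonds, no test) and for the tested genes of 5 lists, with orange for genes that rose, blue for genes that fell and grey for genes not called (limma-trend, adjusted p under 0.05, n = 3 per group). The subunits run from -0.87 to 1.14, the ligands of the RGD-binding integrins from -1.60 to 2.24, and 1 adaptor, Tns1, lies at -1.13.

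Each subunit was also set beside the 67 tested ligands and adaptors by the Euclidean distance between profiles, that is, the values of log2(FPKM + 1) in the 6 samples after subtraction of the gene's mean. Flna was the nearest to Itga11, at a distance of 0.127. Fbln5, which encodes an elastic fibre protein, was nearest to both Itga8 and Itgb1, at 0.174 and 0.191. Dmp1 was nearest to Itga10, Itgb3 and Itgb8, at 0.355, 0.333 and 0.656, and Col3a1 to Itgb5, at 0.414. Vcl was nearest to Itgav, at 0.405. Tnc and Flna were about equally near to Itga1, at 0.3385 and 0.3393, and Fyn and Tns3 to Itga5, at 0.1498 and 0.1501. The profiles were not scaled, so a near gene is largely one with a like difference between the groups, such as 0.98 for Itga11 and 1.00 for Flna. That difference was known when the subunits were chosen. Such distances only describe these 6 samples, and shared regulation was not tested.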

How the data were processed

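RNA from 3 control and 3 metformin samples of MC3T3-E1 cells was sequenced. The authors deposited 1 table of normalized values per gene and sample, with no unit named. Multiplied by gene length, 100% of the nonzero values were whole multiples (within 0.01 reads) of a step particular to each sample, so the reads could be recovered. The library size implied by the step was near the recovered total, for example 1.83e+07 against 18399861 reads in control replicate 1. The deposited values were therefore taken as FPKM. The submitters' processing notes list Bowtie 0.12.2 and the builds mm8 and mm9, whereas 53499 of the 54532 genes have the coordinates of GENCODE M21 (GRCm38). The counting tool and its strand setting are not given in the sources used here. The authors used DESeq2 for their own tests. The columns were matched to samples by their labels, and 0 other columns of sample values were found.

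The groups were compared with limma 3.58.1 (R 4.3.3), with an intensity trend, on log2(FPKM + 1) over genes with a mean of at least 0.5 FPKM, with Benjamini-Hochberg adjustment and a threshold of 0.05. No negative binomial count model was run. The recovered reads were used in voom as an alternative. The fit was tested on simulated data with the same spread in every library and no GC effect. It was not tested with a library that departs from its group, as in these data. The members, lists and tests were chosen with earlier results of these data known. Replicate libraries differed by more than counting noise (median chi-square per gene 1.15 to 14.7, where counting gives 0.455). P-values measure the spread between these samples. At the recovered depths 3 reads are 1.36e-05% to 1.63e-05% of a library, which covers counting error only.

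Genes named are the 10 subunits, the other tested subunits, up to 3 called genes in each direction of each other list with the largest change and no overlap between groups, and the nearest ligand or adaptor of each subunit. Itga2, Itga6, Itgb6, Itgam, Fn1, Ddr1, Mrc2, Tns3, Runx2, Sp7, Dlx5, Bglap2, Bglap, Alpl, Phex and Cd68 were added after their values were seen. A gene that this rule names is not reported here. Of the marker lists, 1 of 6 tested osteoblast genes rose and 0 fell, where 13.2% of all tested genes rose and 9.28% fell. The median log2 fold change of these osteoblast genes was -0.17. The muscle genes Myod1, Myog and Myf5 had 0 reads and Des was not called. The 5 chondrocyte genes summed to 26.8 to 40.0 FPKM in the control group and 29.2 to 31.1 with metformin. Near-identical transcripts shared 200 bases or more with 95% identity. The alternatives tried used a pseudocount of 0.1, total-read scaling, scaling by the trimmed mean of M values (TMM), no filter, at least 10 reads in every sample, voom on recovered reads, a replicate block, a GC correction (a spline with 5 degrees of freedom in each library) and leaving out each replicate. The replicate block together with the GC correction was added after seeing the data. Figures were drawn with matplotlib 3.10.9.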

Additional observations from a re-analysis of the deposited data

How the results depend on the processing

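All 10 subunits kept the sign of their difference in the 150 values from 15 alternatives. Leaving out a replicate, a smaller pseudocount or another filter cannot turn the sign of groups that do not overlap. In this balanced design the replicate block leaves each log2 fold change as it was. Most of these values therefore had their sign fixed in advance. The log2 fold changes ranged from 1.06 to 1.66 for Itga1, -0.77 to -0.71 for Itga10, 0.92 to 1.00 for Itga11, 0.14 to 0.28 for Itga5, 0.58 to 0.90 for Itga8, 0.97 to 1.32 for Itgav, 0.58 to 0.88 for Itgb1, -0.91 to -0.72 for Itgb3, -0.70 to -0.60 for Itgb5 and -2.35 to -0.68 for Itgb8. The difference in the share of Itgb1 among the β subunits, 23.0 percentage points, was 20.6 to 25.4 without each replicate in turn.

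Over all genes 1670 were higher and 1177 lower, and 926 to 2974 and 486 to 2587 without each replicate, both highest without control replicate 1 and lowest without metformin replicate 1. Without metformin replicates 2 and 3 they were 927 and 505, and 969 and 526, and without control replicate 2 the lower count was 738. The replicate block gave 1161 higher and 698 lower genes, the GC correction 2062 and 2434, and both at once 1704 and 1890. The GC correction shifted the median of all genes by -0.054. Deviations from the group means correlated at -0.053, 0.00027 and -0.055 between samples of equal number, which shows no pairing by number. Samples of unequal number were not compared, so pairing is not excluded.

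The count of other integrin subunits called higher, 1, was 0 with scaling by total reads, the replicate block, the GC correction and the last 2 together (by limma-trend, with 1 at an unadjusted p under 0.05 in each and 1 called by voom), and 0 to 1 without each replicate. Of the collagen chains, 5 were higher and 1 lower. With no filter 2 were higher and with the GC correction 8. The lower count was 0 with TMM scaling, no filter, at least 10 reads in every sample and the replicate block, and 2 with the GC correction with or without the block. Without each replicate, 1 to 8 chains were higher and 0 to 3 lower. Of the adaptors, 12 were higher and 1 lower, 3 were lower with the GC correction with or without the block, and 5 to 18 and 1 to 3 were called without each replicate. Ligands of the RGD-binding integrins numbered 5 to 10 higher and 3 to 5 lower without each replicate. Other collagen receptors called higher were 2 in place of 1 with TMM scaling, at least 10 reads in every sample, voom and the GC correction, and 0 to 2 without each replicate. Spp1 lost its call with no filter alone (adjusted p = 0.198). The cause was not tested.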
